A study of Danio rerio with 12 samples.

Results

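The hemoglobins of the larval zebrafish and the genes that serve hemoglobin production in its red blood cells were examined in elmo1+/+ and elmo1-/- larvae. A list of 10 names was followed. It held the embryonic alpha globins hbae1.1, hbae1.3, hbae3 and hbae5, the embryonic beta globins hbbe1.1, hbbe1.3, hbbe2 and hbbe3, the heme synthesis enzyme gene alas2 and the red cell anion exchanger gene slc4a1a. Names were matched to Ensembl gene identifiers by zebrafish symbol or, failing that, by the upper-case name of the orthologue without a copy suffix. In this way 7 of the 10 names were found and yielded 8 of the 32520 identifiers measured. The name SLC4A1 was carried by ENSDARG00000012881 and ENSDARG00000024560, and both are described because the symbols do not tell which of them is slc4a1a. The names hbbe1.1, hbbe1.3 and hbbe2 matched no identifier. A further 7 identifiers were named HBE1, after a human embryonic beta-type globin, and these are described as beta-type globins of unassigned copy that were not on the list.

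RNA of whole larvae was sequenced at 120 hours post fertilization (hpf), with 6 elmo1+/+ wildtype and 6 elmo1-/- knockout samples, each a pool of 30 larvae. All larvae were of the reporter line Tg(fli1:EGFP), in which a fli1 promoter drives a green fluorescent protein in endothelial cells. The elmo1-/- line carries a CRISPR/Cas9 frameshift insertion in exon 2 of elmo1 with a premature stop codon. Elmo1 is an adaptor that, with Dock proteins, activates the small GTPase Rac1. Total expected counts per sample, in units of 1e+06 counts, lay between 20.8 and 21.8. The targeted gene elmo1 reached 121.7 to 143 CPM (counts per 1e+06 counts) in elmo1+/+ and 97.1 to 120 CPM in elmo1-/- samples. These ranges did not overlap, and the log2 fold change was -0.26 (SE 0.06, n = 6 each), with an adjusted p of 0.137 in edgeR's quasi-likelihood test after Benjamini-Hochberg correction. A frameshift can leave the transcript in place, so this level is a weak check of the genotype.

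Hemoglobin is a tetramer of alpha-type and beta-type globin chains, each of which holds a heme group with an iron atom that binds oxygen. In the zebrafish, embryonic and larval red cells use their own set of globin genes, which lie in mixed alpha and beta clusters and are later replaced by adult globins. Heme synthesis starts with 5-aminolevulinate synthase, of which alas2 is the erythroid form and alas1 the form of most other tissues, and slc4a1a encodes band 3, the anion exchanger of the red cell membrane. RefSeq's annotation of GRCz12tu, searched by symbol, puts hbae1.1, hbae1.3, hbae3, hbbe1.1, hbbe1.3 and slc4a1a on chromosome 3, hbae5, hbbe2 and hbbe3 on chromosome 12, and alas2 on chromosome 8. The other SLC4A1 orthologue of that annotation, slc4a1b, lies on chromosome 12. The files were made on the build GRCz11, and no positions are given here.

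None of the 7 listed identifiers that could be tested changed between the genotypes at an adjusted p under 0.05 by edgeR without a replicate block, where 51 of 21830 genes (0.234%) passed. DESeq2, which called 0.444% of genes, called 0 of the 7 too. The globin hbae1.3 and the enzyme gene alas2 had the higher fitted levels in elmo1-/- larvae, at 1.26 and 0.74 on the log2 scale, and both had an unadjusted p under 0.05. That is 2 of 7 identifiers, against 3.06% of all genes with an unadjusted p under 0.05 and a higher level. The fitted log2 fold change was positive for 6 of the 7 and negative for SLC4A1 ENSDARG00000024560. Their median was 0.26, against 0.00 over all genes tested. In no listed gene were the genotypes free of overlap in log2 CPM, a pattern found in 0.513% of genes. In pools of whole larvae, a change in the number of red cells and a change in RNA per red cell cannot be told apart, and the labels do not say whether the pools came from separate clutches, so the p-values measure the spread between these pools.

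**Figure D1:**
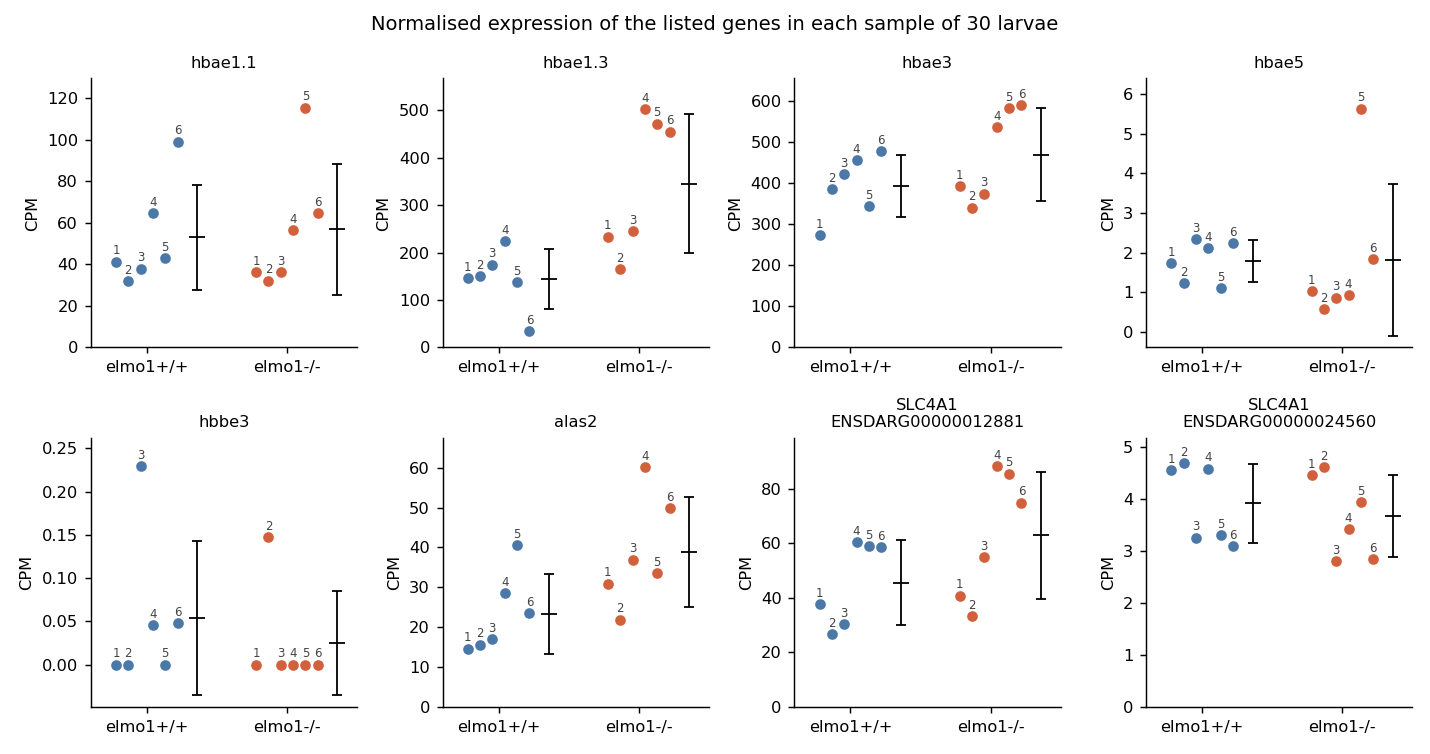
CPM of the 8 listed identifiers in each of the 6 elmo1+/+ (blue) and 6 elmo1-/- (red) samples, numbered by replicate, with the mean and SD in black. For hbae1.3, 5 of 6 elmo1-/- samples lie above the highest elmo1+/+ sample at 225 CPM. For hbae5, most elmo1-/- samples lie below every elmo1+/+ sample and sample 5 lies above them all. The remaining genes overlap more widely.

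The alpha globin hbae3 (ENSDARG00000079305) was the most abundant listed gene. On the length-corrected scale of TPM (transcripts per 1e+06 transcripts), its mean was 1159 ± 204 for the elmo1+/+ and 1345 ± 336 for the elmo1-/- genotype (SD, n = 6 each). In CPM, the lowest, median and highest values were 274, 404 and 478 in elmo1+/+ and 341, 465 and 591 in elmo1-/- larvae. The elmo1-/- samples 4, 5 and 6 lay above every elmo1+/+ sample, and the other elmo1-/- samples lay within the elmo1+/+ range. The log2 fold change was 0.26 (SE 0.16, 95% interval -0.08 to 0.59, adjusted p = 0.928 in edgeR), and the two-sided exact permutation test of log2 CPM gave p = 0.214 (n = 6 each). Without elmo1+/+ sample 1 the log2 fold change was 0.17.

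The alpha globin hbae1.3 (ENSDARG00000089124) had the largest fold change among the listed genes tested. Its lowest, median and highest levels were 34.5, 148 and 225 CPM in elmo1+/+ and 165, 350 and 501 CPM in elmo1-/- samples. The distributions overlapped, as elmo1-/- sample 2 lay below elmo1+/+ samples 3 and 4, and elmo1+/+ sample 6 stood far below the rest. The mean was 145 ± 62.5 CPM against 345 ± 146 CPM (SD, n = 6 each), and the level was higher in elmo1-/- in all 6 same-numbered pairs. The log2 fold change of 1.26 (SE 0.35, 95% interval 0.50 to 2.01) had an unadjusted p of 0.00299 and an adjusted p of 0.377 by edgeR's quasi-likelihood test, and the exact permutation test gave p = 0.00866, 2-sided. Without elmo1+/+ sample 6 the log2 fold change was 1.05, with an edgeR adjusted p of 0.294.

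The near-identical copy hbae1.1 (ENSDARG00000089475) did not show this difference. It ranged from 31.9 to 99.1 CPM with a median of 42.1 in elmo1+/+, and from 32.2 to 115 CPM with a median of 46.4 in elmo1-/- larvae, so that the genotypes overlapped over nearly the whole range. The highest levels were those of elmo1+/+ sample 6 and elmo1-/- sample 5. Its log2 fold change was 0.10 (SE 0.32, 95% interval -0.59 to 0.79, adjusted p = 0.989 in edgeR, n = 6 each), which turned to -0.23 without elmo1-/- sample 5.

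Reads that fit several hbae1 copies were divided among them by estimation when the files were made, so the level of a single copy is uncertain, and the copies were also examined as shares of their sum. Together, hbae1.1, hbae1.2 and hbae1.3 reached 265 to 676 CPM in elmo1+/+ and 267 to 913 CPM in elmo1-/- samples. Their summed log2 fold change was 0.41 (SE 0.30), against 1.26 for hbae1.3 alone, and it fell to 0.21 without elmo1-/- sample 5. By TPM, hbae1.3 made up 39.9% ± 18.9 of this sum in elmo1+/+ and 63.5% ± 5.71 in elmo1-/- larvae, while hbae1.2, which was not on the list, made up 49.7% ± 18.2 and 28.0% ± 4.63 (SD, n = 6 each). The share of hbae1.3 was higher in elmo1-/- in 6 of 6 same-numbered pairs. It lay at 38.1% to 57.4% in 5 elmo1+/+ samples and at 5.14% in sample 6, and at 63.0% to 67.7% in 5 elmo1-/- samples and at 52.4% in sample 5, so that the ranges overlapped through that sample alone. The fitted level of hbae1.2 moved the other way, with a log2 fold change of -0.50 (SE 0.45, adjusted p = 0.959 in edgeR). Whether the shift lies in the transcripts or in the division of shared reads was not tested.

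**Figure D2:**
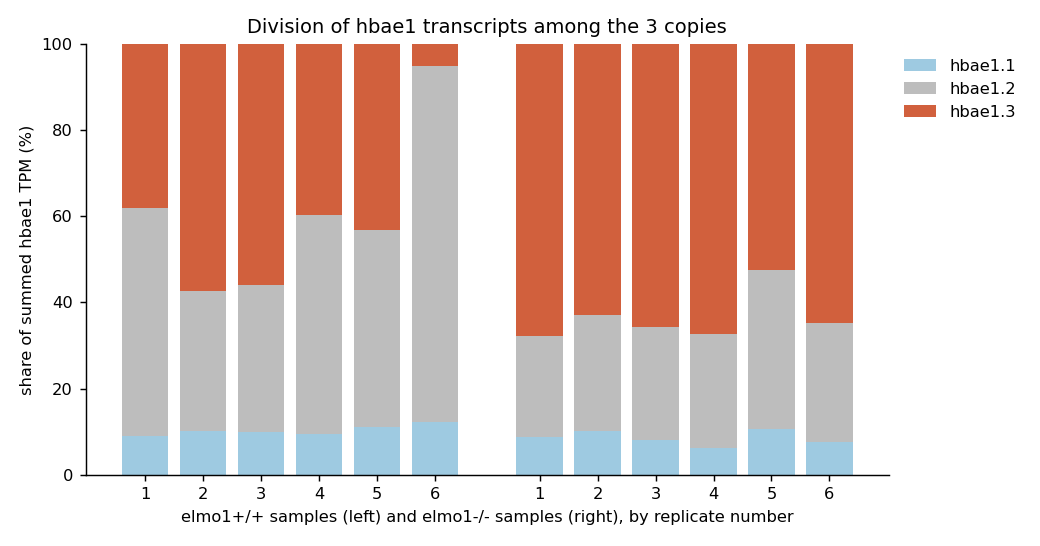
Share of each hbae1 copy in the summed TPM of hbae1.1, hbae1.2 and hbae1.3 (percent, axis from 0 to 100), 1 bar per sample. The share of hbae1.3 is lowest in elmo1+/+ sample 6 at 5.14% and highest in elmo1-/- sample 1 at 67.7%.

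The listed globins hbae5 and hbbe3 were scarce at this age. The alpha globin hbae5 (ENSDARG00000045142) had 1.1, 1.93 and 2.34 CPM as lowest, median and highest level in elmo1+/+ and 0.588, 0.981 and 5.63 CPM in elmo1-/- larvae. The highest of these, in elmo1-/- sample 5, lay above every other sample, while 4 of the 6 elmo1-/- samples lay below every elmo1+/+ sample. Its log2 fold change of 0.03 (SE 0.46, 95% interval -0.95 to 1.01, adjusted p = 0.998 in edgeR) became -0.77 without that sample. The beta globin hbbe3 (ENSDARG00000038147) was removed by the filter on low counts. It had 0, 0, 5, 1, 0 and 1 expected counts in elmo1+/+ samples 1 to 6 and 3 counts in elmo1-/- sample 2, with 0 in the other 5, and a count of 0 still allows up to 3 counts in a sample. This allowance covers counting error only, and a difference in hbbe3 was not detectable at this depth. Fitted without the filter, hbbe3 had a log2 fold change of -0.999 (SE 1.13, adjusted p = 0.917 in edgeR).

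Beta-type globin RNA was therefore found mainly under the 7 HBE1 identifiers, of which 4 could be tested and 1 had 0 counts in all samples. The most abundant, ENSDARG00000113599, held 66.1% ± 5.0 of beta globin TPM in elmo1+/+ and 65.4% ± 4.64 in elmo1-/- larvae (SD, n = 6 each). It reached 342, 451 and 607 CPM as lowest, median and highest level in elmo1+/+ and 371, 531 and 752 CPM in elmo1-/- samples, with wide overlap. Its log2 fold change was 0.25 (SE 0.18, adjusted p = 0.945 in edgeR). All 4 tested HBE1 identifiers had positive log2 fold changes, from 0.15 to 0.78 for ENSDARG00000087390, whose edgeR adjusted p was 0.812. Summed, the HBE1 identifiers gave a log2 fold change of 0.29 (SE 0.20), which fell to 0.15 without elmo1-/- sample 5.

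Embryonic globins as a whole took 0.459% ± 0.107 of all TPM in elmo1+/+ and 0.555% ± 0.210 in elmo1-/- larvae, and the elmo1-/- level was higher in 4 of 6 same-numbered pairs. The difference of 0.0964 percentage points fell to 0.0337 without elmo1-/- sample 5. The spread within elmo1-/- was wide, with 0.325% to 0.418% in samples 1, 2 and 3 and 0.655% to 0.869% in samples 4, 5 and 6. Alpha globins summed to 2511 ± 652 TPM and beta globins to 2076 ± 429 TPM in elmo1+/+, against 3088 ± 1190 and 2463 ± 908 TPM in elmo1-/- samples. The ratio of alpha to beta globin stayed within 1.11 to 1.33 across all 12 samples, at 1.2 ± 0.08 and 1.25 ± 0.05 (SD, n = 6 each). The adult alpha globin hbaa1, which the filter on low counts removed, had 1 to 5 expected counts in elmo1+/+ samples and 0 or 1 in elmo1-/- samples. Over all samples of a genotype these came to 19 against 1 count, a ratio of 0.0532 (exact 95% interval 0.00128 to 0.335, counting error only). The level was lower in elmo1-/- in 6 of 6 same-numbered pairs, each resting on at most 5 counts per sample. The share of all genes lower in every pair was not computed. In the edgeR fit without the filter hbaa1 had an unadjusted p of 0.000352 and an adjusted p of 0.128.

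Expression of alas2 (ENSDARG00000038643), the enzyme that commits red cell precursors to heme synthesis, was the second listed difference with an unadjusted p under 0.05. Its lowest, median and highest levels were 14.6, 20.3 and 40.6 CPM in elmo1+/+ and 21.9, 35.3 and 60.1 CPM in elmo1-/- larvae. Only elmo1-/- samples 4 and 6 exceeded all elmo1+/+ samples, elmo1+/+ samples 1, 2 and 3 lay below all elmo1-/- samples, and the level was higher in elmo1-/- in 5 of 6 same-numbered pairs. The log2 fold change was 0.74 (SE 0.26, 95% interval 0.17 to 1.3). Its unadjusted p was 0.0138 and its adjusted p 0.642 by edgeR, and the two-sided exact permutation test gave p = 0.0433 (n = 6 each).

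The anion exchanger gene SLC4A1 ENSDARG00000012881 was about as abundant as alas2, at 17.2 ± 5.63 TPM against 11.9 ± 5.02 TPM in elmo1+/+ larvae (SD, n = 6), with overlapping ranges. It reached 26.7, 48.2 and 60.5 CPM as lowest, median and highest level in elmo1+/+ and 33.3, 64.9 and 88.3 CPM in elmo1-/- samples. Within each genotype samples 4, 5 and 6 lay above samples 1, 2 and 3, and the labels do not say what the sample numbers stand for. The log2 fold change was 0.47 (SE 0.26, 95% interval -0.08 to 1.02, adjusted p = 0.890 in edgeR). The second identifier, SLC4A1 ENSDARG00000024560, was much lower, at 1.74 ± 0.37 TPM in elmo1+/+ and 1.57 ± 0.38 TPM in elmo1-/- larvae. Its log2 fold change was -0.09 (SE 0.16, 95% interval -0.43 to 0.25, adjusted p = 0.983 in edgeR).

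When samples of the same number were compared, the picture for the anion exchanger and some other listed genes differed. With the replicate number as a block in edgeR, 60 genes (0.275%) passed an adjusted p of 0.05, and SLC4A1 ENSDARG00000012881 was the 1 listed gene among them, with a log2 fold change of 0.45 and an adjusted p of 0.0474. Over the 22 alternatives to the unblocked fit, its adjusted p ranged from 0.0474 to 0.999, and the block was the only one under 0.05. Its CPM was higher in elmo1-/- in 6 of 6 pairs, as was that of hbae1.3, so that 2 of the 7 listed identifiers tested showed this, against 2.19% of all genes. The two-sided exact sign-flip test gave p = 0.0312 for each, the smallest that 6 pairs allow. Any gene higher in all 6 pairs gets this p, so it adds nothing to the count of pairs. By TPM the anion exchanger was higher in 5 of 6 pairs. For alas2 the blocked log2 fold change was 0.76 with an adjusted p of 0.107. The titles do not state that a number marks shared parents or a shared day.

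**Figure D3:**
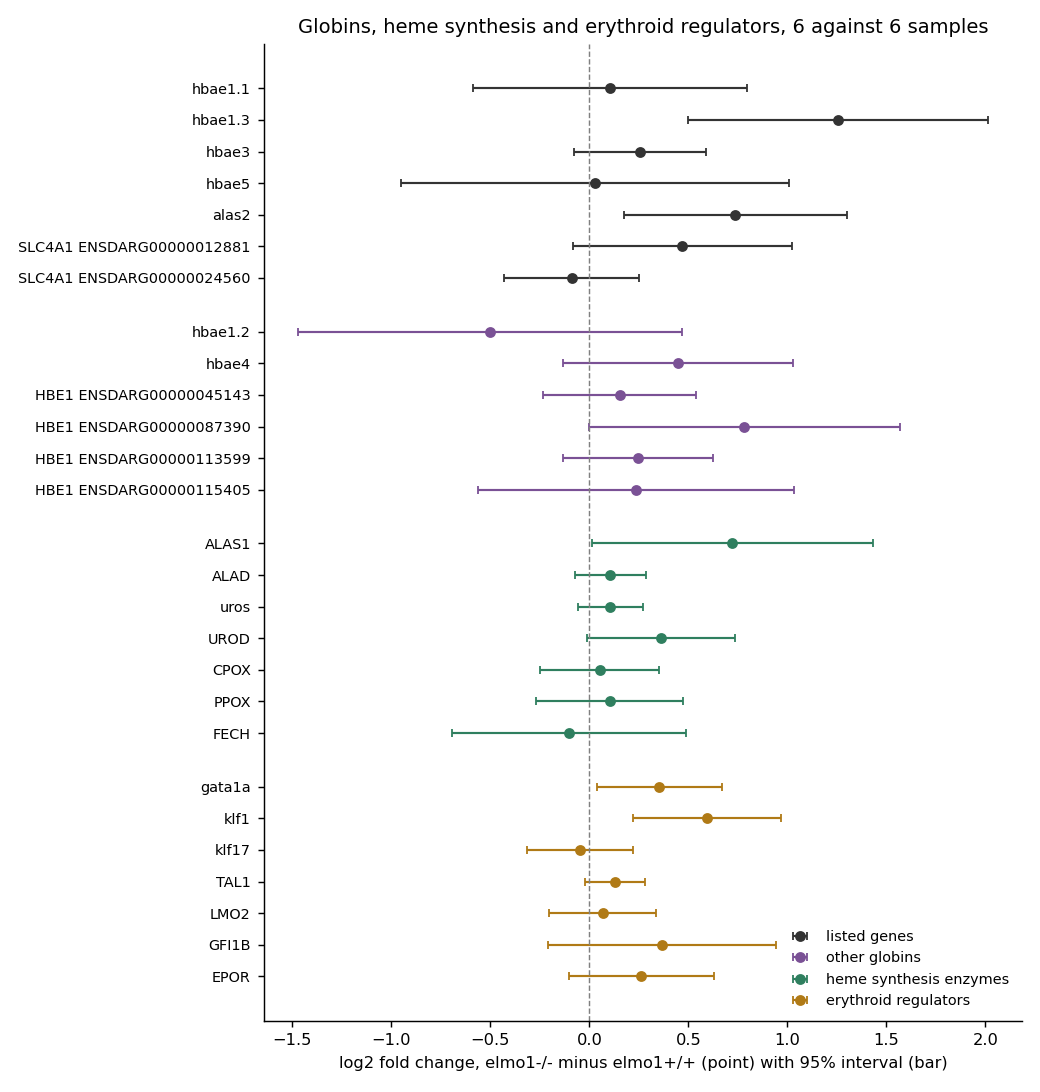
Log2 fold change of elmo1-/- against elmo1+/+ larvae from edgeR without a block (points) with 95% intervals (bars) for the listed genes, other globins, 7 heme synthesis enzymes in pathway order and erythroid regulators. The interval of hbae1.3 runs from 0.50 to 2.01 and that of alas2 from 0.17 to 1.3, and no gene shown has an adjusted p under 0.05.

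The heme pathway was followed along its order of reactions. Of 8 enzyme genes described, 0 changed at an adjusted p under 0.05 by edgeR or DESeq2, 7 had positive log2 fold changes, and their median was 0.11. With unadjusted p under 0.05 there were 2 (alas2 and ALAS1), both higher, against 6.16% of all genes in either direction. At the entry step, the housekeeping form ALAS1 reached 228 to 676 CPM in elmo1+/+ and 174 to 776 CPM in elmo1-/- samples, with a log2 fold change of 0.72 (SE 0.33, adjusted p = 0.803 in edgeR). ALAS1 was lowest of all in elmo1-/- sample 5, which had the highest summed globin share of TPM, and a link between them was not tested. ALAD, the next enzyme, had a log2 fold change of 0.11.

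For the later steps, the log2 fold change was 0.11 for uros, which closes the ring, and 0.36 (SE 0.18, adjusted p = 0.827 in edgeR) for UROD, which decarboxylates it. It was 0.05 for CPOX and 0.10 for PPOX, the mitochondrial oxidases. FECH, which inserts the iron, gave -0.10 (SE 0.28) at a low level. Among 14 identifiers for transport and cofactors of heme synthesis, 0 passed in edgeR. The porphyrin transporter ABCB6 ENSDARG00000063297 had the lowest log2 fold change, -0.54 (SE 0.13, adjusted p = 0.236 in edgeR, DESeq2 adjusted p = 0.0342). It reached 5.84 to 7.61 CPM in elmo1+/+ and 3.40 to 5.73 CPM in elmo1-/- samples. These ranges did not overlap, a pattern found in 0.513% of all genes tested. The highest log2 fold change was 0.11, for slc25a39, which in mammals carries glutathione into mitochondria. The median over this list was 0.01.

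Other genes of the red cell were read in the same way. Among 14 tested identifiers of the red cell membrane and its skeleton, 0 passed the adjusted threshold in edgeR, the median log2 fold change was 0.06, and the extremes were SLC4A1 ENSDARG00000012881 and GYPC at -0.15. Of 8 identifiers for red cell enzymes and other erythroid genes, 0 passed, against 0.234% of all genes, and all 8 had positive values, as did 51.7% of all genes, with a median of 0.10. The highest was cahz, the carbonic anhydrase of red cells, with 43.1 to 71.2 CPM in elmo1+/+ and 49.3 to 106 CPM in elmo1-/- samples and a log2 fold change of 0.40 (SE 0.18, adjusted p = 0.782 in edgeR). With the replicate block its adjusted p was 0.0475. The lowest of these was blvrb at 0.01.

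Of 17 tested genes for erythroid transcription and cytokine signalling, 0 passed, with a median of 0.05. At an unadjusted p under 0.05 there were 2 higher and 1 lower, against 6.16% of all genes in either direction. The erythroid activator klf1 had the highest log2 fold change, 0.59 (SE 0.18, unadjusted p = 0.00415, adjusted p = 0.426 in edgeR). Its level ran from 3.27 to 4.63 CPM in elmo1+/+ and from 3.58 to 8.49 CPM in elmo1-/- larvae, with 5 of 6 elmo1-/- samples above every elmo1+/+ sample. Of the regulators added after their values were seen, gata1a gave 0.35 (SE 0.15, adjusted p = 0.748 in edgeR) and GFI1B 0.37 (SE 0.27). EPOR gave 0.26 (SE 0.17), TAL1 0.13 (SE 0.07), LMO2 0.07 (SE 0.13) and klf17 -0.05 (SE 0.13). LDB1 ENSDARG00000103158, the copy with the lowest value, gave -0.30 (SE 0.11, adjusted p = 0.628 in edgeR).

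Iron handling, heme breakdown and the response to low oxygen were also listed. Of 18 tested iron genes 0 passed, with a median of 0.10, the highest value for the transferrin receptor tfr1a at 0.41 (SE 0.22) and the lowest for the ferritin-like fthl27 at -0.36 (SE 0.12, adjusted p = 0.541 in edgeR). Of 11 genes of heme and hemoglobin breakdown 0 passed, with a median of -0.04, the highest value for the heme oxygenase HMOX1 at 0.34 (SE 0.24) and the lowest for haptoglobin, hp, at -0.28 (SE 0.17). Of 13 hypoxia response identifiers 0 passed, with a median of 0.04 and the extremes both in the prolyl hydroxylase EGLN1, with 0.10 for ENSDARG00000004632 and -1.06 for ENSDARG00000105156 (adjusted p = 0.723 in edgeR). Globins outside red cells, among them myoglobin (mb) and neuroglobin (NGB), gave 0 calls of 4, a median of 0.02 and values from -0.26 for xgb to 0.08 for NGB.

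Markers of other cells in the larvae were set beside these values, over 7 lists. Of these lists the endothelial one held the only gene called in edgeR without a block, the endothelial transcription factor FLI1. Its log2 fold change was -0.38 (SE 0.05, adjusted p = 0.00447 in edgeR), with 101 to 109 CPM in elmo1+/+ against 72.2 to 89.6 CPM in elmo1-/- samples. All 5 endothelial markers had negative values, with cdh5 nearest to 0 at -0.01, and their summed level was 77.2 to 91.4 TPM against 54.3 to 71.4 TPM, most of it from FLI1. Summed lymphoid markers lay at 4.41 to 6.30 TPM in elmo1+/+ and 3.31 to 4.77 TPM in elmo1-/- larvae. Of 5 tested, 0 were called in edgeR without a block, with lck lowest at -0.97 and RAG2 highest at 0.01. RAG1 gave -0.75 (SE 0.19, adjusted p = 0.256 in edgeR). It was called by DESeq2 (adjusted p = 0.0342) and by edgeR with the replicate block (adjusted p = 0.0238). Liver markers, from 4216 to 5911 TPM against 3746 to 7132 TPM, overlapped between the genotypes and had 0 called of 6, with values from -0.05 for serpina1l to 0.32 for tfa. Thrombocyte markers lay at 33.6 to 46.4 TPM against 36.1 to 41.4 TPM, with 0 of 5 called and values from -0.15 for f5 to 0.29 for gp9. Macrophage markers lay at 17.3 to 25.0 TPM against 16.8 to 31.7 TPM, with 0 of 10 called and values from -0.47 for cd74a to 0.51 for MPEG1 ENSDARG00000043093. Neutrophil markers lay at 62.0 to 81.2 TPM against 65.1 to 108 TPM, with 0 of 5 called and values from -0.03 for nccrp1 to 0.34 for lyz. Stem and progenitor markers lay at 154 to 177 TPM against 142.2 to 172 TPM, with 0 of 6 called and values from -0.52 for gata2b to 0.14 for MYB. No listed marker was at 0 in all samples, and the part of these cells in the globin values was not tested.

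The listed genes varied together to different degrees. Over the 12 samples, log2 CPM of alas2 and SLC4A1 ENSDARG00000012881 had Pearson's r = 0.84 (adjusted permutation p = 0.021 over 21 pairs of genes) and Spearman's rho = 0.82 (adjusted permutation p = 0.036). Pearson's r was 0.82 without the 2 samples farthest from the median of alas2, 0.83 within elmo1+/+ and 0.82 within elmo1-/- samples (n = 6 each, no test). The permutations exchanged all 12 samples freely. Within each genotype, however, SLC4A1 ENSDARG00000012881 was higher in samples 4, 5 and 6 than in samples 1, 2 and 3. In elmo1+/+ samples alas2 was divided in the same way. These p-values therefore cannot separate a link between genes from differences shared among samples. In all, 4 of the 21 pairs had an adjusted p under 0.05 for r. The other 3 joined hbae1.1 with SLC4A1 ENSDARG00000012881 (r = 0.75, rho = 0.79, trimmed r = 0.81), with hbae3 (r = 0.72, rho = 0.69, trimmed r = 0.68) and with hbae5 (r = 0.76, rho = 0.66). The last r fell to 0.48 without the 2 farthest samples and so rests in part on them. For rho, the adjusted permutation p was 0.036 with SLC4A1 ENSDARG00000012881, but 0.0915 with hbae3 and 0.0915 with hbae5. For hbae1.3 and hbae3, r was 0.44 (rho = 0.59, adjusted permutation p = 0.282 for r and 0.146 for rho), and it was 0.88 without the 2 samples farthest from the median of hbae1.3. Within genotypes it was 0.97 in elmo1-/- and -0.31 in elmo1+/+ samples (n = 6 each, no test), where sample 6 had the lowest hbae1.3 and the highest hbae3 level.

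**Figure D4:**
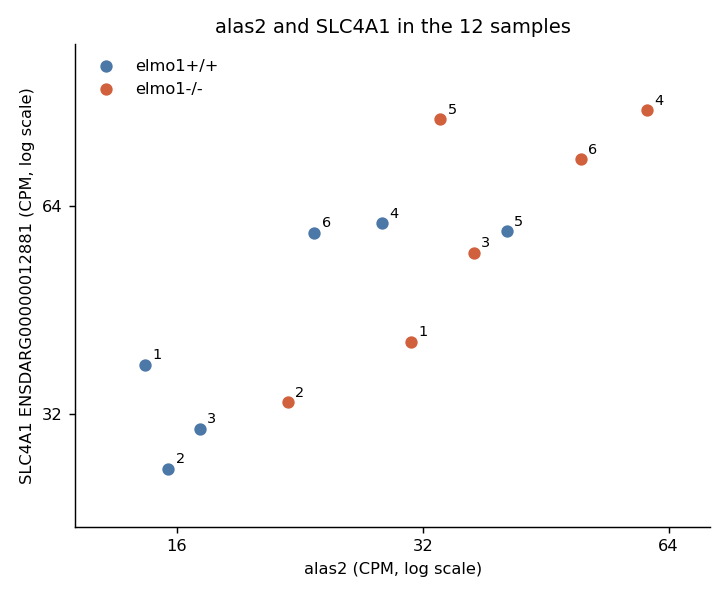
CPM of alas2 (horizontal, log scale) against SLC4A1 ENSDARG00000012881 (vertical, log scale) in the 6 elmo1+/+ (blue) and 6 elmo1-/- (red) samples, numbered by replicate. The points rise together, with r = 0.84 on the log2 scale, and the genotypes overlap.

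Genes outside the globin lists whose levels ran most like these were sought among 17576 genes with a symbol and a mean of at least 1 log2 CPM, after each value was centred on its genotype mean (n = 12). With hbae3, the 5 highest correlations were those of LSM8 (r = 0.94), ndufa7 (0.92), GRK7 ENSDARG00000055534 (0.91), MVK (0.90) and ndufc1 (0.90). With alas2, over 17575 genes, they were ndufa4b (0.92), NMT1 ENSDARG00000057206 (0.92), etv5b (0.92), oaz1b (0.91) and cahz (0.91). Of these, cahz alone was on a red cell list. None of the 10 had an adjusted p under 0.05 between the genotypes in edgeR. All values come from the same 12 libraries, and correlations of this size are selected as the highest of many.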

How the data were processed

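Total RNA of 12 pools of 30 larvae (6 per genotype, taken from the sample titles) was sequenced on the BGISEQ-500 platform. The deposited files give an expected count and a TPM value per gene. The authors' expected counts are estimates, of which 38.0% to 39.6% per sample were not whole, and their TPM values, normalized by the authors for length and depth, sum to 1e+06. The submitters' processing notes name Trim Galore 0.6.4, kallisto 0.4.6 and GRCz11. Reads shared by gene copies were divided before deposition.

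Expected counts were rounded, although whole counts had been assumed. Genes were filtered with filterByExpr (minimum count 10), scaled by TMM factors and compared across all genes with the quasi-likelihood test of edgeR 4.0.16 (R 4.3.3) with Benjamini-Hochberg adjustment. CPM use the scaled library sizes, and log2 CPM a prior count of 2. Symbols were found for 29201 of 32520 identifiers (89.8%). Exact permutation tests over 924 relabellings, sign-flip tests and the 100000 permutations for relations used NumPy 2.4.6. SciPy 1.17.1 supplied the intervals and the adjusted p of the relations. The code was tested on simulated data. Alternatives were DESeq2 1.42.0, voom and trend fits of limma 3.58.1, log2(TPM + 1) and log2(TPM + 0.1), other factors and filters, globins left out of library sizes, the replicate number as a block and leaving out each sample. Summing HBE1 identifiers and dividing hbae1 into shares were chosen after seeing the data.

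The text names all listed genes, the heme enzymes described in order and, in each other list, genes past the threshold and those with the highest and lowest fold change, plus the genes with the most similar profiles. The regulators gata1a, klf17, LMO2, TAL1, EPOR and GFI1B were added after their values were seen. The members and the lists were chosen with earlier results of these data known. Adult beta globins and gene sequences were not analysed here, and part of heme synthesis is not reported here.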

Additional observations from a re-analysis of the deposited data

Results flagged for a closer look

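In 5 of 50 groups of 6 values examined, 1 sample stood apart from the other 5 by Dixon's criterion at the 95% level, where chance gives about 1 in 20, or 2.5. For hbae5 it was elmo1-/- sample 5 with 5.63 CPM, against 0.588 to 1.85 CPM in the others. For hbbe3 these were elmo1+/+ sample 3 with 0.229 CPM, against 0 to 0.0477, and elmo1-/- sample 2 with 0.147 CPM, against 0 in the rest. These hbbe3 values rest on 5 and 3 counts. Where the other 5 values are all 0, any count above 0 meets the criterion. The chance rate above does not hold for such sparse counts. The share of hbae1.3 among the hbae1 copies was 5.14% in elmo1+/+ sample 6, against 38.1% to 57.4%, and 52.4% in elmo1-/- sample 5, against 63.0% to 67.7%.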

How the results depend on the processing

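Of 304 values recomputed under alternatives, 289 were labelled unchanged. For fold changes with a p this meant the same direction and the same side of the threshold. Summed fold changes, shares and ratios have no p and so no side of the threshold. Counts of genes called have no direction, and those labelled unchanged still varied. DESeq2 called 97 genes rather than 51, and it called elmo1 (-0.26, adjusted p = 0.00817). Among the 153 list genes tested, DESeq2 and the replicate block each called 4 rather than 1. Over all 21830 genes tested, the shares called were 0.444% by DESeq2, 0.275% with the block and 0.234% in the main fit. FLI1 and RAG1 were called in both alternatives, with cd34 and ABCB6 ENSDARG00000063297 by DESeq2 and SLC4A1 ENSDARG00000012881 and cahz with the block. The replicate block also raised the listed genes called from 0 to 1 (SLC4A1 ENSDARG00000012881, log2 fold change 0.45). For hbae5 the log2 fold change of 0.03 reversed to -0.37 (limma-voom), -0.28 (log2(TPM + 1)), -0.39 (log2(TPM + 0.1)) and -0.27 (replicate block), and ranged from -0.77 to 0.21 when single samples were left out. That of hbae1.1 ranged from -0.23 to 0.38, and the cause was not tested. For hbae1.3 and alas2 every alternative had an unadjusted p under 0.05 and none an adjusted one, with leave-one-out ranges of 1.05 to 1.43 and 0.57 to 0.97. The number of genes called ranged from 34 to 67 when samples were left out.

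The deviations of same-numbered samples from their genotype means correlated at -0.03 to 0.30 over 21830 genes (mean 0.13), with 4 of 6 pairs over 0.1. The criterion that every pair exceed 0.1 was therefore not met, and the block remained an alternative. That criterion does not show that the samples are unpaired, and 7 of 12 samples correlated best with their own number. Whether same-numbered samples share a source was not tested. The globin hbbe3, which the filter removed, was fitted without the filter alone. Fits of hbbe1.1, hbbe1.3, hbbe2 and the summed hbbe1 copies, which matched no identifier, were not run. Depth limits what can be said of hbbe3 and hbaa1.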
